A study of Mus musculus with 8 samples.

Results

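The 4 microRNAs mmu-miR-3077-5p, mmu-miR-3091-5p, mmu-miR-6931-5p and mmu-miR-7040-5p, out of 1881 on an Agilent mouse microRNA array, were picked from the LPS arrays for their higher signal. They were selected on the difference between LPS and sham signal, so that difference is given below as a description, without a test. The LPS group had 4 kidney samples, taken 24 h after an intraperitoneal dose of 10 µg lipopolysaccharide (LPS, endotoxin of Gram-negative bacteria) per g of mouse. The sham group had 4 kidney samples from mice given saline. The labels name this LPS model as septic acute kidney injury, give no strain, sex or age, and do not say that each sample came from a separate animal, so p-values measure only the spread between these samples. Each array carried Cy3-labelled total RNA, and replicates are called by the numbers in the labels.

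A microRNA is a short RNA cut from a hairpin precursor. The hairpin gives a 5p and a 3p arm, of which usually 1 is loaded into Argonaute and guides it to messenger RNAs through the seed, bases 2 to 8. High-numbered entries such as these were added to the registry from small RNA sequencing, and little is established about their targets or about any role in kidney. In bulk kidney RNA, a change in the number of cells of a type and a change in RNA per cell cannot be told apart.

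The mature sequences, from RefSeq (GRCm38.p6), are shown so that their seeds, their base composition and the stretch read by each probe can be seen. The capitals mark the seed, and 3 of the 4 members had an entry. The sequence of miR-7040-5p is not shown.
miR-3077-5p: cUGCGGACgggugggcgggcaggcc
miR-3091-5p: cAUGGGUCugguugggcccgc
miR-6931-5p: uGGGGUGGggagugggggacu

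The seeds of these 3 differed from each other, and 0 other mature microRNAs in the RefSeq table had any of them. All 3 were rich in G, which made up 56.0% of the bases of miR-3077-5p, 42.9% of miR-3091-5p and 66.7% of miR-6931-5p, against a median of 26.3% over the 1608 array microRNAs with a RefSeq sequence. The 90th percentile of these was 45.8%, which miR-3077-5p and miR-6931-5p exceeded and miR-3091-5p did not. Runs of GGG or longer numbered 3 in miR-3077-5p, 2 in miR-3091-5p and 3 in miR-6931-5p. At least 2 such runs occurred in 7.71% of the 1608 sequences.

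The hairpin of miR-3077-5p lies at chr14:57798424-57798487 on the plus strand of GRCm38.p6, 235 bases after the annotated start of Sap18, which encodes a subunit of the Sin3 histone deacetylase co-repressor. That of miR-3091-5p lies at chr2:180257536-180257611 on the plus strand, 157 bases after the start of Rps21, a gene for a protein of the small ribosomal subunit. The hairpin of miR-6931-5p lies at chr11:102999848-102999921 on the minus strand inside Dcakd, named for a dephospho-CoA kinase domain and on the same strand, and also within the span of the long non-coding RNA gene Gm34620 on the opposite strand. That of miR-7040-5p lies at chr6:83049711-83049773 within the span of Loxl3, a lysyl oxidase that cross-links collagen. Exon and intron boundaries were not used here. Within 10 kb of each of these hairpins the annotation holds 0 other microRNA hairpins. The hairpins of miR-3077-5p and miR-6931-5p end in CAG, as do 17.9% of the 1005 hairpins in the table.

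Each member was read by a pair of probes, 15 spots each, that differ by 1 base in length. The probe sequences, as the array files give them, follow from shorter to longer, and a capital marks the base that the longer probe adds.
miR-3077-5p, 10 bases: ggcctgcccg
miR-3077-5p, 11 bases: ggcctgcccgC
miR-3091-5p, 11 bases: gcgggcccaac
miR-3091-5p, 12 bases: gcgggcccaacC
miR-6931-5p, 13 bases: agtcccccactcc
miR-6931-5p, 14 bases: agtcccccactccC
miR-7040-5p, 13 bases: cgcctccatctcc
miR-7040-5p, 14 bases: cgcctccatctccC

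The 6 probes of the members with a RefSeq entry are complementary to the last bases of that sequence over their whole length. They therefore read the 3′ end of the microRNA. They lie outside the seed, except that the longer probe of miR-6931-5p reaches the last base of the seed. The probes are short and rich in G and C. Only 46 of the 4415 probes on the array, 1.04%, have 10 bases or fewer, and 3.28% have 11 or fewer, against a median of 16 bases. The shares are 8.09% for 12 or fewer, 17.5% for 13 or fewer and 31.5% for 14 or fewer. The probes of miR-6931-5p and miR-7040-5p are thus less unusual in length. The G and C content was 90% and 90.9% for the probes of miR-3077-5p, 81.8% and 83.3% for those of miR-3091-5p, and 69.2% and 71.4% for those of both miR-6931-5p and miR-7040-5p, against a median of 53.3%.

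MiR-3077-5p was above background in both groups and brighter on every LPS array. The 11-base probe gave background-subtracted signals of 261, 175, 155 and 144 scanner units on LPS replicates 6, 10, 11 and 12, against 27.1, 42.3, 46.8 and 40.8 on sham replicates 5, 6, 7 and 8. LPS replicate 6 was the brightest array, sham replicate 5 the dimmest, and the groups did not overlap. Single spots did not overlap either, running from 129.8 to 281 on LPS arrays and from 19.4 to 58.8 on sham arrays. After division by the 75th percentile of each array, the probe averaged 35.5% ± 10.5 of that percentile in LPS kidneys and 7.98% ± 1.64 in sham kidneys (SD, n = 4 per group), a ratio of 4.45.

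The 10-base probe of miR-3077-5p, a single base shorter, gave 16.5, 10.7, 10.97 and 8.05 units on the LPS arrays and 0.352, 1.23, 2.09 and 1.89 on the sham arrays. It was higher on every LPS array, but only 1 of 58 LPS spots and 0 of 59 sham spots were flagged well above background, so no fold is given for it. The 11-base probe carried 93.4% to 94.7% of the summed signal on LPS arrays, and the result for miR-3077-5p rests on it.

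MiR-3091-5p was flagged well above background on the LPS arrays only. Its 11-base probe gave 41.7, 26.0, 20.7 and 20.5 units on LPS replicates 6, 10, 11 and 12, against -2.44, 4.62, 10.2 and 6.08 units on sham replicates 5, 6, 7 and 8. Of its spots, 51 of 59 were flagged well above background on LPS arrays and 0 of 59 on sham arrays. The dimmest probe above background had a signal of 16.8 to 19.5 units on LPS arrays and 16.6 to 20.4 on sham arrays, and the LPS values of this probe exceeded it on each array, by the least on replicates 11 and 12. Against that limit the 11-base probe was at least 1.35-fold higher in LPS kidneys.

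The 12-base probe of miR-3091-5p gave 30.1, 18.7, 14.6 and 14.7 units on LPS arrays, with 26 of 58 spots above background, and 0.230, 2.05, 5.65 and 3.19 on sham arrays, with 0 of 60. It passed the rule for detection, more than 50% of the spots, on 1 of 4 LPS arrays. On both probes the LPS arrays stood in nearly one order, replicate 6 above replicate 10 and both above the other two, and the longer probe read 0.705 to 0.723 of the shorter on all 4 LPS arrays.

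MiR-6931-5p was the brightest member, with both probes above background on all 8 arrays and 0 saturated spots. Its 14-base probe gave 781, 372, 355 and 516 units on LPS replicates 6, 10, 11 and 12, against 133, 125, 180.2 and 146 on sham replicates 5, 6, 7 and 8. The 13-base probe gave 591, 245, 250.3 and 380 units on the LPS arrays and 86.1, 74.0, 82.2 and 73.2 on the sham arrays. On both probes LPS replicate 6 was brightest and replicate 12 next, and every LPS spot was brighter than every sham spot. The SD over the spots of a probe was 2.46% to 4.87% of the mean on LPS arrays and 3.52% to 9.56% on sham arrays.

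The probes of miR-6931-5p differed in the size of the rise. The 13-base probe averaged 71.4% ± 33.0 of the 75th percentile in LPS kidneys and 16.1% ± 1.34 in sham kidneys (SD, n = 4 per group), a mean log2 difference of 2.04. The 14-base probe averaged 98.5% ± 40.2 and 29.7% ± 3.94, a mean log2 difference of 1.66. The gap of 0.389 log2 between the probes compares with a median of 0.0433 over 210 microRNAs with a pair of probes of different length above background on all arrays, and it was the second largest of these.

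MiR-7040-5p, like miR-3091-5p, was flagged well above background on the LPS arrays only. Its 14-base probe gave 43.5, 32.6, 23.3 and 35.7 units on LPS replicates 6, 10, 11 and 12, against 11.7, 9.05, 9.94 and 10.3 units on sham replicates 5, 6, 7 and 8. The 13-base probe gave 40.2, 26.8, 15.45 and 28.25 units on LPS arrays and 8.63, 5.22, 7.06 and 6.77 on sham arrays, and passed the detection rule on 3 of 4 LPS arrays. Spots above background numbered 58 of 59 on LPS arrays and 0 of 59 on sham arrays for the longer probe, and 49 of 60 and 0 of 59 for the shorter. LPS replicate 6 was highest and replicate 11 lowest on both probes, and the 14-base probe was at least 1.70-fold higher in LPS kidneys.

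Sham signals of these dim probes were set against the 1000 negative-control spots of each array. The 98th percentile of these single spots was 8.55 to 10.3 units on LPS arrays and 8.82 to 10.3 on sham arrays. The sham means of the 14-base probe of miR-7040-5p, 9.05 to 11.7 units, lay close to that percentile. These are means over 14 or 15 spots, which scatter less than single spots, so that closeness does not place them within background. The single sham spots of this probe ran from 4.38 to 18.0 units, all above the negative-control medians of 1.66 to 2.22 on sham arrays. For the 11-base probe of miR-3091-5p the single sham spots ran from -8.60 to 13.1 units. Its sham means ran from -2.44 on sham replicate 5, below the negative-control median of 1.96, to 10.2 on sham replicate 7. There the 98th percentile of single negative-control spots was 9.90. No sham level can be given for these members beyond being not well above background.

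**Figure D1:**
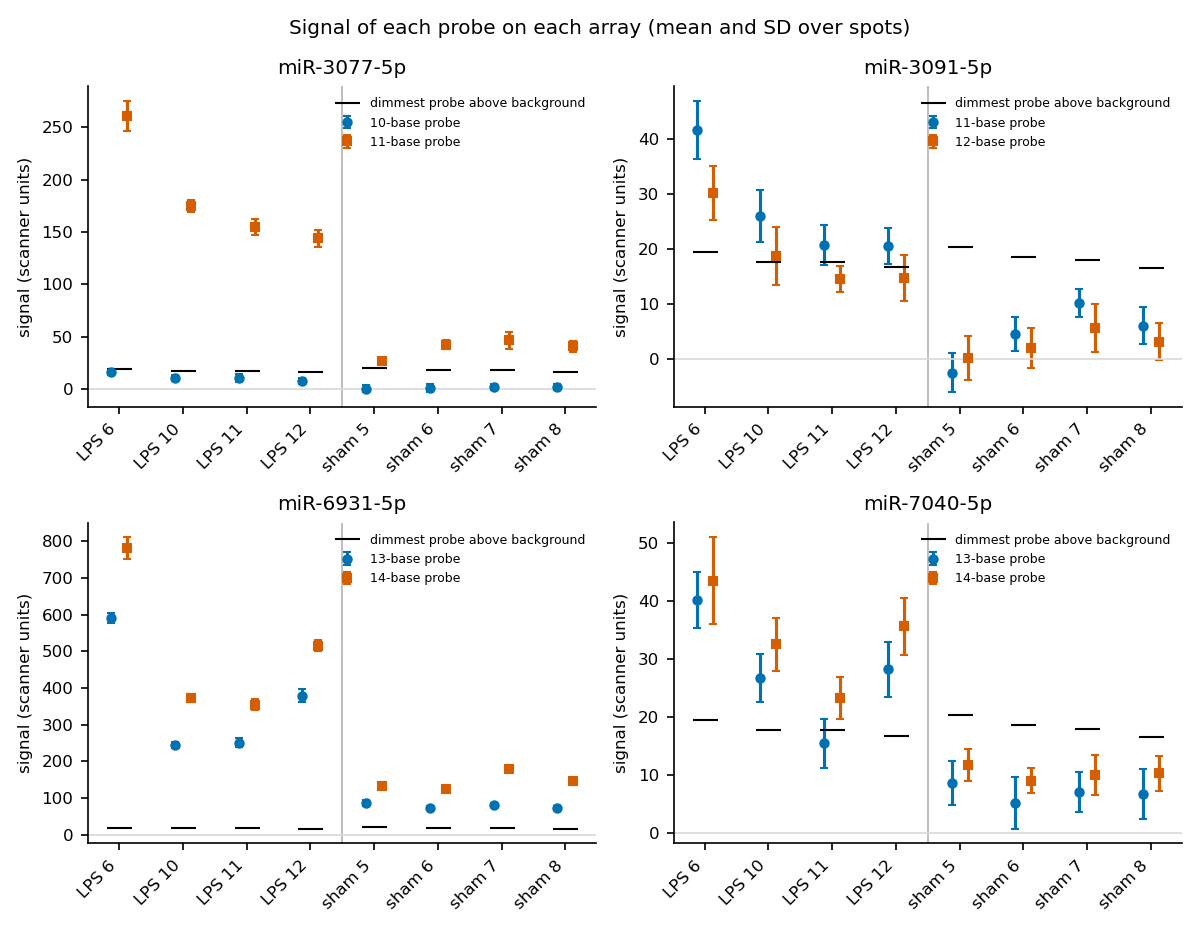
Background-subtracted signal in scanner units (vertical axis, its own linear scale in each panel) of the 2 probes of each member on the 4 LPS and the 4 sham arrays. Points are means and bars SDs over the spots of a probe, and black dashes mark the dimmest probe above background on that array. The sham points of miR-3091-5p and miR-7040-5p all lie below the dashes, and LPS replicate 6 is the highest array in all 4 panels.

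With its probes summed and divided by the array's 75th percentile, each member stood higher on every LPS array than on any sham array. That holds for 12.1% of the 338 microRNAs tested, which were detected throughout the LPS or the sham group, and nothing is read from the members' count since they were chosen for this contrast. MiR-3077-5p summed to 54.3%, 34.4%, 31.4% and 30.8% of the percentile on LPS replicates 6, 10, 11 and 12 and to 5.69%, 9.26%, 9.59% and 8.52% on sham replicates 5, 6, 7 and 8. MiR-6931-5p summed to 269%, 115%, 115% and 181% on the LPS arrays and to 45.5%, 42.3%, 51.5% and 43.8% on the sham arrays. The log2 difference was 2.18 for miR-3077-5p and 1.80 for miR-6931-5p. For miR-3091-5p and miR-7040-5p it was 1.14 and 1.52, but these depend on the floor at which dim sums were set, -4.68 log2 units, since 4 of 4 and 3 of 4 sham arrays lay on it.

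The LPS arrays differed more from each other for these microRNAs than for most. The SD of the log2 level over the 4 LPS arrays was 0.38 for miR-3077-5p, 0.49 for miR-3091-5p, 0.59 for miR-6931-5p and 0.49 for miR-7040-5p, against a median of 0.12 over the 338 tested. In that order they ranked 22, 9, 4 and 8 from the most variable. On sham arrays the 2 members detected there had an SD of 0.35 (miR-3077-5p) and 0.12 (miR-6931-5p), against a median of 0.10.

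LPS replicate 6 gave the highest LPS level for all 4 members. LPS replicate 10 was the highest of the LPS arrays for 44.7% of the tested microRNAs, and for 21 of the 50 called higher. LPS replicate 6 was the highest for 31.1% of the tested microRNAs, and for 22 of those 50, with the 4 members among these 22. Its level divided by the mean of the other LPS arrays was 1.97 for miR-6931-5p, 1.91 for miR-3091-5p, 1.69 for miR-3077-5p and 1.57 for miR-7040-5p, against a median of 1.01 over the tested microRNAs, and all 4 were among the 10 highest. The 2 highest were the red-cell microRNAs miR-451a (2.34) and miR-144-3p (2.29). The negative-control spots of that array had an SD of 7.86 units, against 3.36 to 3.81 on the other LPS arrays and 3.17 to 3.85 on sham arrays. It held 1 such spot at 218 units, without which the SD was 3.88. Without LPS replicate 6 the log2 differences of the members were 1.99 for miR-3077-5p, 0.91 for miR-3091-5p, 1.55 for miR-6931-5p and 1.35 for miR-7040-5p.

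**Figure D2:**
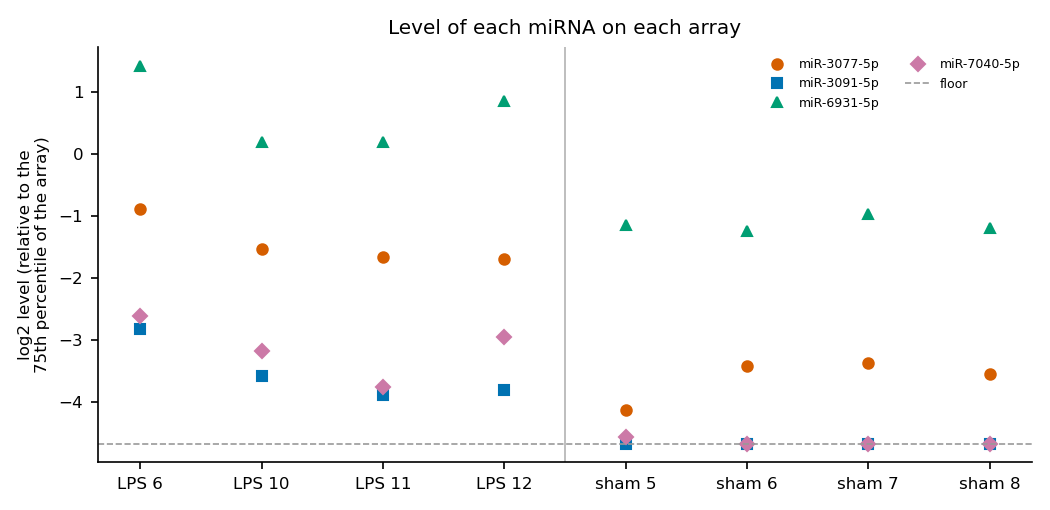
Log2 level of each member (vertical axis, 0 being the array's 75th percentile) on the 4 LPS and the 4 sham arrays. Points are single arrays, and the dashed line is the floor at -4.68. LPS replicate 6 is highest for every member, and the next array is replicate 12 for miR-6931-5p and miR-7040-5p and replicate 10 for miR-3077-5p and miR-3091-5p.

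Below replicate 6 the members differed in which array came next. MiR-6931-5p and miR-7040-5p had LPS replicate 12 next, at 0.86 and -2.95 log2 units. MiR-3077-5p and miR-3091-5p had replicate 10 next, at -1.54 and -3.59. The deviations from the group means of miR-3077-5p and miR-6931-5p, the 2 members detected on all 8 arrays, correlated at 0.584. This is a description over arrays among which LPS replicate 6 was highest for both.

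Listed microRNAs of other cell types are given beside these values; over all 338 tested, 14.8% rose and 25.4% fell. Of 4 listed red-cell microRNAs 2 could be tested and both rose, miR-451a by 2.43 log2 units (limma, adjusted p = 0.0285) and miR-144-3p by 2.46 (adjusted p = 0.0235), while miR-144-5p was detected on 0 arrays and miR-486a-5p on 2 LPS arrays. The summed red-cell level was 2.05 to 13.9 times the 75th percentile on LPS arrays and 0.517 to 3.15 on sham arrays. On LPS replicates 6, 10, 11 and 12 it was 13.9, 2.05, 9.71 and 6.09. Of 6 leukocyte microRNAs miR-155-5p (1.68, adjusted p = 2.25e-06) and miR-223-3p (0.86, adjusted p = 0.000303) rose, 0 fell and 4 did not pass the test, and the sum was 3.45 to 3.72 on LPS arrays and 2.26 to 3.12 on sham arrays. The 6 kidney tubule microRNAs were detected on all arrays, and 0 rose while miR-192-5p (-0.28, adjusted p = 0.0277), miR-194-5p (-0.33, adjusted p = 0.0107) and miR-204-5p (-0.19, adjusted p = 0.0378) fell, with sums of 61.6 to 70.9 on LPS and 67.9 to 73.6 on sham arrays, and liver-specific miR-122-5p on 0. Of 3 striated muscle microRNAs, miR-1a-3p alone could be tested, with a difference of 0.13 (adjusted p = 0.415). The part of other cell types in the members' differences was not tested.

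The opposite arms did not pass the detection rule. The 3p arms of the 4 hairpins, miR-3077-3p, miR-3091-3p, miR-6931-3p and miR-7040-3p, have probes of their own on the array, and 0 of the 4 were detected on any of the 8 arrays, so they could not be tested. Both probes of miR-3077-3p read -3.28 to -1.62 units on LPS arrays and -2.08 to 0.462 on sham arrays. Those of miR-3091-3p read -3.004 to -0.867 and -2.24 to 0.392, and those of miR-7040-3p -1.36 to -0.418 and -2.78 to -0.0966. MiR-6931-3p read slightly more, 5.90 to 10.5 units on LPS arrays and 7.36 to 9.56 on sham arrays, with 2 of 58 LPS and 0 of 60 sham spots above background on 1 probe and 0 of 59 and 1 of 60 on the other, and its groups overlapped. The dimness of a probe for 1 arm gives no measure of that arm's abundance against the other, since probes differ in affinity.

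**Figure D3:**
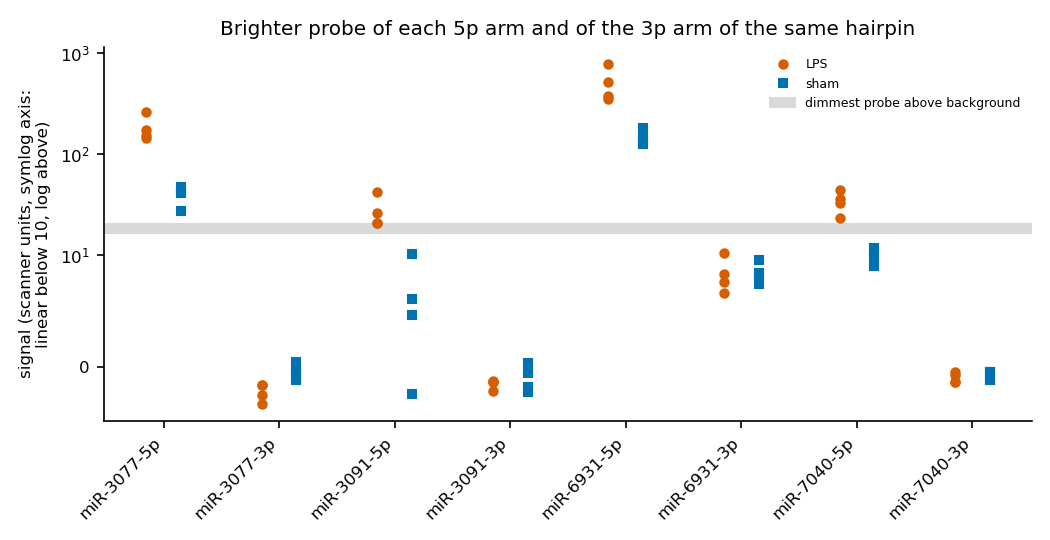
Signal in scanner units (vertical axis, linear below 10 and logarithmic above) of the brighter probe of each member and of the 3p arm of its hairpin. Circles are the 4 LPS arrays and squares the 4 sham arrays, and the grey band spans the dimmest probe above background over the 8 arrays. All points of the 4 3p arms lie below the band.

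Other microRNAs with sequence close to the probes were looked up by sequence alone, outside the naming rule. The full complement of each of the 8 probes occurred in 0 other mature microRNAs of RefSeq, and 0 other probes of the array held the same letters. The longest shared run was 10 bases, between the 11-base probe of miR-3077-5p and miR-7671-3p. MiR-7671-3p was detected on all arrays and moved the other way, with -2.83 ± 0.14 log2 units in LPS kidneys and -2.38 ± 0.09 in sham kidneys (SD, n = 4 per group), a difference of -0.45 (limma, adjusted p = 0.00405). For the other probes the longest runs were 8 or 9 bases. MiR-7085-5p, miR-1188-5p, miR-6941-5p and miR-6915-5p, which share them, were detected on 0 arrays, and miR-7648-3p on 1 of 4 LPS and 3 of 4 sham arrays. RNAs other than microRNAs were not searched.

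High-numbered microRNAs moved in both directions. Of 97 tested with a number of 3000 or more in the name, leaving out the 4 members, 10 (10.3%) rose and 34 (35.1%) fell, with a median difference of -0.18. Over all 338 tested, 14.8% rose and 25.4% fell, with a median of -0.08. This split moves with the scaling: 50 rose and 86 fell as reported, against 57 and 49 with no scaling, 55 and 53 with the percentile over all probes, 65 and 66 with cyclic loess, and 34 and 152 with labelling spike-ins, which set the median difference at -0.23. In the class, 12 rose and 26 fell with no scaling, and 4 rose and 48 fell with spike-ins. Among the 5p arms of the class 6 of 50 rose and 14 fell, and among the 3p arms 1 of 15 rose and 7 fell. The largest rises of the class were those of miR-3082-5p, by 1.61 ± 0.13 (SE, adjusted p = 6.11e-05), miR-6538, by 1.45 ± 0.19 (adjusted p = 0.000711), and miR-5128, by 0.73 ± 0.22 (adjusted p = 0.0309). Of these, miR-6538 stood at -0.44 ± 0.40 in LPS kidneys and -1.89 ± 0.13 in sham kidneys (SD, n = 4 per group).

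Classes drawn from the sequence features of the members, set after those were seen, are given as counts only. Of 43 other tested microRNAs with at least 2 runs of GGG, 6 rose and 14 fell, with a median difference of -0.08. Of 12 with at least 3 runs, 3 rose and 2 fell, with a median of 0.02. Of 14 other tested microRNAs whose probes all had 12 bases or fewer, 4 rose and 1 fell, with a median of 0.37, while of 80 whose probes had 14 or fewer, 10 rose and 22 fell, with a median of -0.12.

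Some microRNAs were among the 3 most similar in level over the 8 arrays for several members. Similarity was measured as the Pearson correlation of log2 levels, a description that the difference between the groups dominates. For miR-3091-5p and miR-7040-5p the sham values in it are floor values on 4 and on 3 arrays. MiR-6538 was among the 3 closest to miR-3091-5p (r = 0.983), miR-3077-5p (r = 0.982) and miR-6931-5p (r = 0.975). MiR-7666-3p, which rose by 0.50 ± 0.10 (SE, adjusted p = 0.00686), was among the 3 closest to miR-6931-5p (r = 0.982), miR-3091-5p (r = 0.972) and miR-7040-5p (r = 0.971). MiR-3082-5p was the closest to miR-7040-5p (r = 0.977) and among the 3 closest to miR-6931-5p (r = 0.967). The others were miR-7a-5p (r = 0.974) and miR-21a-3p (r = 0.961) for miR-3077-5p, miR-466i-5p (r = 0.966) for miR-3091-5p and miR-1187 (r = 0.971) for miR-7040-5p.

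With the group means removed, the 2 closest to miR-6931-5p were miR-2137 (r = 0.942) and miR-6769b-5p (r = 0.937), whose own differences of 0.41 and 0.43 did not pass the test (adjusted p = 0.105 and 0.129). For miR-3091-5p and miR-7040-5p, whose sham deviations come from floor values, the ranking rests mainly on the 4 LPS arrays. The closest to miR-3091-5p were miR-6538 (r = 0.949) and miR-466i-5p (r = 0.894), and to miR-7040-5p miR-7666-3p (r = 0.878) and miR-3968 (r = 0.872). Those of miR-3077-5p were miR-191-3p (r = 0.859) and miR-202-3p (r = 0.851). MiR-191-3p did not pass the test (-0.01, adjusted p = 0.946), and miR-3968 and miR-202-3p fell, by 0.42 and 0.27 (adjusted p = 0.00187 and 0.00259).

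How the background was handled set the size of the rise of the dim members. In the manufacturer's total signal per microRNA, miR-3091-5p and miR-7040-5p stood at 0.1 on all 4 sham arrays, a single value in place of the measured one, against 9.79 to 20.1 and 10.8 to 23.4 on LPS arrays. In the authors' deposited ratio table, which is centred per microRNA, miR-7040-5p had ratios of 20.9, 14.8, 10.1 and 17.0 on LPS replicates 6, 10, 11 and 12, against 0.0924, 0.0988, 0.0976 and 0.0911 on sham replicates 5, 6, 7 and 8. This gave a log2 difference of 7.32 for miR-7040-5p and 6.91 for miR-3091-5p. With normexp background correction and an offset of 50 the same differences were 0.31 and 0.29, and those of miR-3077-5p and miR-6931-5p were 0.83 and 1.36. The offset in itself shrinks differences of dim probes.

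**Figure D4:**
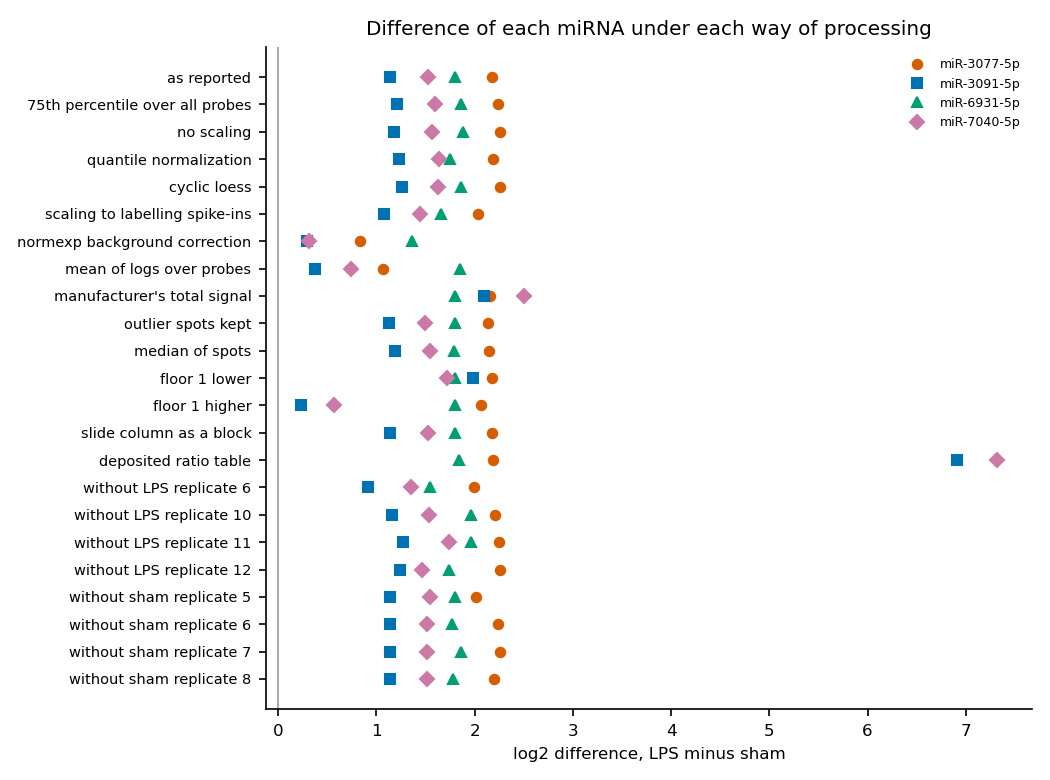
Log2 difference between LPS and sham kidneys (horizontal axis, positive where LPS is higher) of each member under each way of processing, 1 row for each. All points lie above 0. Those of miR-3091-5p run from 0.23 to 6.91 and those of miR-7040-5p from 0.31 to 7.32, while those of miR-6931-5p run from 1.36 to 1.96.

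Facts of the arrays set limits on all of this. The 8 arrays lay on 1 slide, the LPS arrays in its row 2 and the sham arrays in row 1, so the position on the slide and the treatment cannot be told apart. Between 16.2% and 16.7% of non-control spots were well above background on LPS arrays, and between 15.8% and 17.5% on sham arrays. The number of arrays, 4 per group, limits the precision.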

How the data were processed

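MicroRNA arrays of 4 LPS and 4 sham mouse kidneys were analysed. The authors deposited spot intensities, the scanner output from Agilent Feature Extraction 12.0.3.1, per the submitters' processing notes, background-subtracted with spatial detrending and not scaled between arrays, per the file headers. Well-above-background, outlier and saturation flags, of no unit (other), are the same software's, per the file headers. The authors also deposited a table of linear ratios, 1 for each microRNA on each array, with array factors not given in the sources used here, and served as an alternative only.

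Outlier spots were dropped before averaging the spots of a probe. Signals were scaled to the array's 75th percentile, taken over the 551 probes that all 8 arrays showed above background, probes were summed per microRNA, sums floored at -4.68 log2 units and log2-transformed. A microRNA was detected where over 50% of the spots of any probe were well above background. The 338 detected throughout the LPS or the sham group were fitted by lmFit and eBayes of limma 3.58.1 (R 4.3.3, 2-sided, Benjamini-Hochberg adjustment over the 338, threshold 0.05), a fit tested on simulated data. A fold written as "at least" sets the mean of a probe on LPS arrays against, per sham array, the higher of its own signal and the dimmest probe above background. Members and lists were chosen with earlier results of these data known. Named besides the members are the 3p arms, markers, microRNAs numbered 3000 or more, and for each member the 3 tested microRNAs closest in level and the 2 closest in deviation from the group mean. Hairpin positions and mature sequences come from RefSeq (GRCm38.p6). Alternatives covered scaling, background, probe summary, spot and dimness filters, floor, variance model, slide column, the deposited ratios and each array left out.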

Additional observations from a re-analysis of the deposited data

Results flagged for a closer look

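Of 24 groups of 4 arrays examined over the members and their probes, where chance gives about 1.20, 1 held an array far from the other 3. For miR-7040-5p, sham replicate 5 stood at -4.57 log2 units while the other sham arrays were at the floor of -4.68, where any value above it stands apart.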

How the results depend on the processing

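The log2 differences of the 4 members were positive under all 14 alternatives and with each array left out. Those of miR-3077-5p were 0.83 with normexp and 1.07 when logs of the probes were averaged in place of summing, which weighs its dim 10-base probe equally, and moved by less than the spread between replicates in the other 12. That of miR-6931-5p moved more only with normexp (1.36). For miR-3091-5p the values were 0.29 with normexp, 0.37 with averaged logs, 2.09 with the manufacturer's total signal, 1.98 and 0.23 with the floor 1 log2 unit lower and higher, and 6.91 in the deposited ratio table. For miR-7040-5p they were 0.31, 0.74 and 2.50 under the first 3 of these, 0.57 with the higher floor and 7.32 in the ratio table. The sham values of these 2 members lay at or near the floor, so each setting that moves the floor or replaces dim values moves them by construction. Leaving out 1 array gave 1.99 to 2.26 for miR-3077-5p, 0.91 to 1.27 for miR-3091-5p, 1.55 to 1.96 for miR-6931-5p and 1.35 to 1.74 for miR-7040-5p, in each case lowest without LPS replicate 6. As a plain ratio of probe means in place of the bound, the 11-base probe of miR-3091-5p read 5.71 and the 14-base probe of miR-7040-5p 3.14. Where every spot of a probe had to be above background, miR-3091-5p was detected on 1 array in place of 4.

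The number of microRNAs called was 136, 50 of them higher and 86 lower, 60 with no filter (more microRNAs tested), 80 with slide column as a block, and 85 to 152 with 1 array left out (85 without sham replicate 6, 88 without LPS replicate 12). The other alternatives kept it within 1.5 times. With scaling to labelling spike-ins 186 were called. The 3p arms, at the floor on all 8 arrays with a difference of 0, gave -0.05 each in the deposited ratio table and -0.09 (miR-3077-3p), -0.06 (miR-3091-3p), -0.07 (miR-6931-3p) and -0.05 (miR-7040-3p) with normexp, and miR-6931-3p -0.21 with the lower floor. Cyclic loess, the stricter and looser detection filters and the variance models were not run for them, since they apply to tested microRNAs. No paired analysis was possible because the labels give the groups only replicate number 6 in common. The block on slide column pairs arrays by place on the slide, not by sample.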
